A study of Mus musculus with 8 samples.

Results

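The 10 genes described here encode transcription factors that mouse oocytes are known to use while they grow, and they were taken by name as Nobox, Figla, Lhx8, Sohlh1, Sohlh2, Taf4b, Tbpl2, Foxo3, Sall4 and Sebox. All 10 were among the 35976 gene symbols of the deposited count table, and 9 of the 10 had enough counts to be tested, Sohlh1 being the exception. Polyadenylated RNA was sequenced from full-grown oocytes, the cells that have finished growing in the ovary and stored transcripts for the early embryo. Each library came from a pool of about 20 oocytes, so a value is the mean over the cells of a pool, and fewer cells holding a transcript cannot be told apart from less of it per cell. Every one of the 4 groups held 2 libraries. The H2A.Z DKO oocytes are labelled as lacking both H2A.Z.1 and H2A.Z.2, the genes for the histone variant H2A.Z, and the H2A.Z control oocytes are labelled wild type. The Mll2 KO oocytes are labelled as lacking MLL2, an enzyme that methylates histone H3 at lysine K4, and the Mll2 WT oocytes are labelled wild type. The labels name no age, strain, Cre line or deleted exon for any group, nor whether pools came from separate females, so p-values measure the spread between these libraries, which may be technical. The design compares each mutant with the controls of its own line and then the mutants with each other.

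The group labels were checked on the targeted genes. Kmt2b, which encodes MLL2, had a CPM (its counts as a share of the library total after scaling) of 8.73 and 9.28 in the Mll2 KO libraries, against 41.9 and 42.4 CPM in the Mll2 WT libraries. H2afz, which encodes H2A.Z.1, had 322 and 317 CPM in the libraries labelled DKO, against 23.9 and 29.97 CPM in the libraries labelled H2A.Z control. H2afv, which encodes H2A.Z.2, had 285 and 294 CPM in the libraries labelled DKO and 108 and 107 CPM in the libraries labelled H2A.Z control. Both genes went against the label, so every direction given for the H2A.Z line holds for the libraries as labelled. Libraries held 20309233 to 30087863 counts over 21077 to 22212 detected genes, and log2 CPM of the 2 libraries of a group correlated across genes at 0.984 to 0.989. The 12 oocyte markers were all detected in every group and summed to 16889 to 24877 CPM per library. The 14 granulosa and cumulus markers summed to 125 to 127 CPM in the libraries labelled DKO, against 94.7 to 95.2 CPM in H2A.Z control, and to 101.7 to 101.8 CPM in Mll2 KO, against 92.0 to 94.3 CPM in Mll2 WT. Of these 14, 2 were at 0 in the libraries labelled DKO (Amh and Amhr2), 0 in H2A.Z control, 2 in Mll2 KO (Amh and Wt1) and 3 in Mll2 WT (Amh, Foxl2 and Wt1). By the test used below, 2 of the 9 tested rose and 1 fell in the libraries labelled DKO. In Mll2 KO 3 rose and 2 fell. Of all tested genes 30.9% and 30.6% were called in these comparisons. The oocyte markers had 2 higher and 0 lower of 12 in the libraries labelled DKO, and 0 higher and 2 lower in Mll2 KO. Of 4 tested theca and stroma markers, 1 rose and 0 fell in the libraries labelled DKO, and 1 rose and 1 fell in Mll2 KO. The same counts held for 3 tested blood, immune and endothelial markers. The 9 theca and stroma markers summed to 24.1 to 27.4 CPM in the libraries labelled DKO and 14.3 to 16.2 CPM in H2A.Z control, with Col1a2 at 0 in both groups. In Mll2 KO they summed to 9.37 to 10.2 CPM and in Mll2 WT to 9.06 to 10.3 CPM, with Col1a1 and Acta2 at 0 in both. The 9 blood, immune and endothelial markers summed to 29.1 to 32.6 CPM in the libraries labelled DKO and 22.2 to 23.6 CPM in H2A.Z control, and to 36.3 to 44.5 CPM in Mll2 KO and 35.6 to 36.6 CPM in Mll2 WT, and the haemoglobin genes were at 0 in all groups. The granulosa sums were higher in both mutants than in their controls and the other sums were higher in the libraries labelled DKO, while in the Mll2 line the theca and blood sums overlapped between the groups. The part of these levels in the results was not tested.

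The factors act at successive levels of the oocyte programme. SOHLH1 and SOHLH2, a pair of basic helix-loop-helix (bHLH) proteins, and the LIM homeodomain protein LHX8 act early in follicle formation, upstream of the homeodomain protein NOBOX and the bHLH protein FIGLA, which are needed for oocyte genes such as those of the zona pellucida. TBPL2 takes over from the TATA-binding protein in growing oocytes, TAF4B is a gonad-enriched subunit of TFIID, the complex that carries TBP, and FOXO3 holds resting follicles dormant until PI3K signalling moves it out of the nucleus. SALL4 is a zinc finger factor of germ cells and pluripotent cells, and SEBOX is a homeodomain protein of oocytes and early embryos.

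Promoter sequences are shown for 4 of the factors because MLL2 is known to bind unmethylated CpG sites through a CXXC domain and because FIGLA binds E-boxes. Each is 300 bases from RefSeq on GRCm38.p6, 250 before to 50 after the annotated start, written 5′ to 3′ on the gene's strand, and 8 of the 10 genes had an entry. In the Sebox (chr11:78503263-78503562, plus strand) and Foxo3 (chr10:42276646-42276945, minus strand) promoters the capitals mark CG dinucleotides.
Sebox: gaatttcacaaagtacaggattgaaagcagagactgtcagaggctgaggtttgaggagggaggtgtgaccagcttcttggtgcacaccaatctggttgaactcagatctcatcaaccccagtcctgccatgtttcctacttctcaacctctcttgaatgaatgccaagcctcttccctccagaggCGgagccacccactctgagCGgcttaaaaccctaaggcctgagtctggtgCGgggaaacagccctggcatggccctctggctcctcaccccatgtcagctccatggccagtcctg
Foxo3: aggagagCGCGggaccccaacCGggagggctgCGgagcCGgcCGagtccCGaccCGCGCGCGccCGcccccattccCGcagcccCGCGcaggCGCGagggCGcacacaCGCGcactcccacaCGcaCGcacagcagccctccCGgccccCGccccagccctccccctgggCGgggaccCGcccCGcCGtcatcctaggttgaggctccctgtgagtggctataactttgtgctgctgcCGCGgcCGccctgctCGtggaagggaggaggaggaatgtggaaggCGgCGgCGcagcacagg
In the Figla (chr6:86016941-86017240, plus strand) and Nobox (chr6:43309505-43309804, minus strand) promoters the capitals mark the E-box CANNTG. The Figla window follows the RefSeq start and lies inside the gene as GENCODE places it, from 86016171 to 86020996. The sequence at the GENCODE start of Figla was not examined.
Figla: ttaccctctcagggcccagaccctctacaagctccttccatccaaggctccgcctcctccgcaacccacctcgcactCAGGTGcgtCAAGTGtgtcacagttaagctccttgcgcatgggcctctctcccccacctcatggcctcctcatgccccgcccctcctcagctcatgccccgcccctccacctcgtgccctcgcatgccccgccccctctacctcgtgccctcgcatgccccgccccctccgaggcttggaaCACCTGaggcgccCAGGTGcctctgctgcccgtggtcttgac
Nobox: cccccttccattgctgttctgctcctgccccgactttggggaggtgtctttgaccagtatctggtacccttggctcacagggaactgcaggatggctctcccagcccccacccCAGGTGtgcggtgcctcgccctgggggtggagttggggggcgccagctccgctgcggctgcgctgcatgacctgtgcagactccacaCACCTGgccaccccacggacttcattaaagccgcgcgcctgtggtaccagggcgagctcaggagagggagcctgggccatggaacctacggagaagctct
The Sebox promoter held 3 CG dinucleotides and the Foxo3 promoter 35, against a median of 7 (quartiles 3 and 20) over 32851 mouse promoters of this length. Lhx8 and Tbpl2 had 4 each, Nobox 13, Sohlh1 14, Figla 16 and Sohlh2 17. CANNTG was present in 5 of the 8 promoters and in 72.3% of all promoters. Its form CACCTG, read on both strands and contained in the CANNTG count, was present in 4 of the 8 (Nobox, Figla, Sohlh1 and Tbpl2) and in 20.2% of all promoters. The TATA-box letters TATAAA, the FOXO motif GTAAACA and the homeodomain motifs TAATTA and TAATTG were in 0 of the 8, against 13.6%, 3.65%, 5.29% and 8.0% of all promoters. These are matches of letters in a window and say nothing of binding.

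Levels of different genes were compared as CPM per kilobase of exon. Nobox was the highest of the 10 in every group, with a mean of 236 ± 2.74 in the libraries labelled DKO, 229 ± 16.2 in H2A.Z control, 201 ± 34.9 in Mll2 KO and 201 ± 12.7 in Mll2 WT (SD, n = 2 each). That placed it between the percentiles 97.8 and 98.3 of the 14615 genes that were tested and had a known length. Sohlh1 and Sohlh2 were the lowest in every group, Sohlh2 reaching percentiles 30.4 to 43.0 of the same tested genes. Between these ends the order differed from group to group, within each line as well as between the lines. In the libraries labelled DKO it ran Figla (141), Lhx8 (44.0), Sall4 (43.9), Sebox (34.4), Tbpl2 (21.9), Foxo3 (10.4) and Taf4b (4.71), in mean CPM per kilobase, and Lhx8 and Sall4 overlapped. In H2A.Z control it ran Figla (109), Sebox (57.9), Lhx8 (41.4), Sall4 (32.4), Tbpl2 (22.4), Foxo3 (6.75) and Taf4b (3.40), with no neighbours overlapping. In Mll2 KO it ran Lhx8 (85.9), Figla (62.7), Sall4 (48.8), Sebox (37.1), Foxo3 (17.8), Tbpl2 (14.2) and Taf4b (7.46), and Sall4 overlapped Sebox and Foxo3 overlapped Tbpl2. In Mll2 WT it ran Lhx8 (67.7), Sebox (63.4), Figla (60.6), Sall4 (49.95), Foxo3 (16.05), Tbpl2 (11.4) and Taf4b (4.45), and Sebox overlapped both Lhx8 and Figla. Sall4 was far above the other SALL genes per kilobase: Sall2 averaged 0.36 to 0.69, Sall3 0.01 to 0.06, and Sall1 had 0 counts in every group but Mll2 WT, where it had 1.

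**Figure D1:**
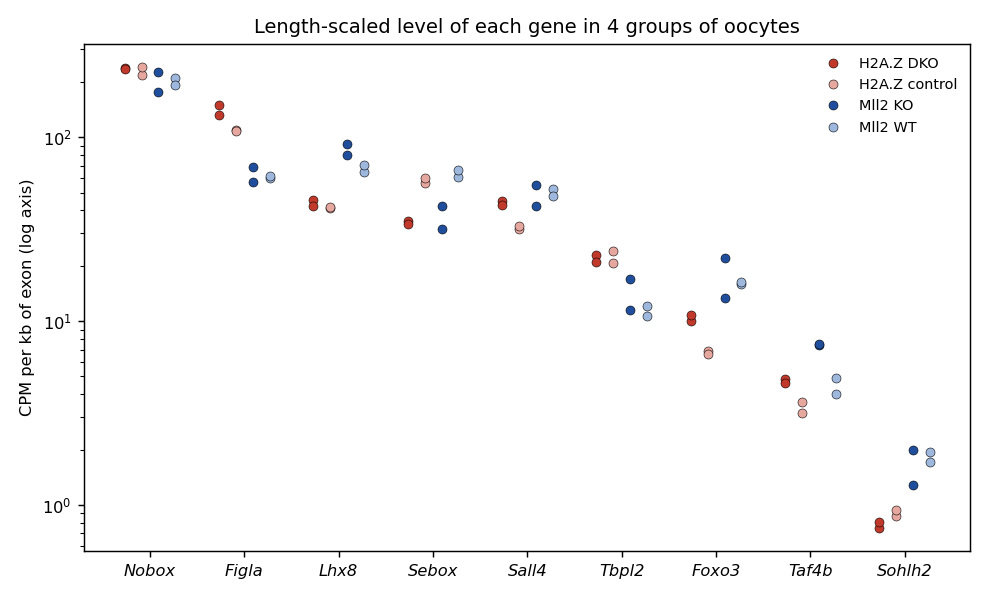
Level of each gene in CPM per kilobase of exon on a log axis, with a point for each library, coloured by group. Nobox lies highest in all 4 groups, and Figla and Tbpl2 lie higher in the H2A.Z line than in the Mll2 line.

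The libraries labelled DKO were first set against H2A.Z control, which asks how the loss of H2A.Z named in the labels goes with the levels of these factors. Sebox fell, Figla, Taf4b, Foxo3 and Sall4 rose, and Nobox, Lhx8, Sohlh2 and Tbpl2 did not pass the test. That made 4 higher and 1 lower of 9 tested, against 30.9% of all 16847 tested genes called in either direction, 19.4% higher and 11.5% lower. All counts of calls use edgeR's quasi-likelihood test with a Benjamini-Hochberg adjusted p under 0.05 over all tested genes. The median log2 difference was 0.09 over the 9 factors and 0.12 over all tested genes, so log2 differences are also given relative to that median of all genes. Of all calls in this comparison 62.9% were higher, and 45.5% were higher when libraries were scaled by their totals alone, which moved the median of all genes to 0.0018.

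**Figure D2:**
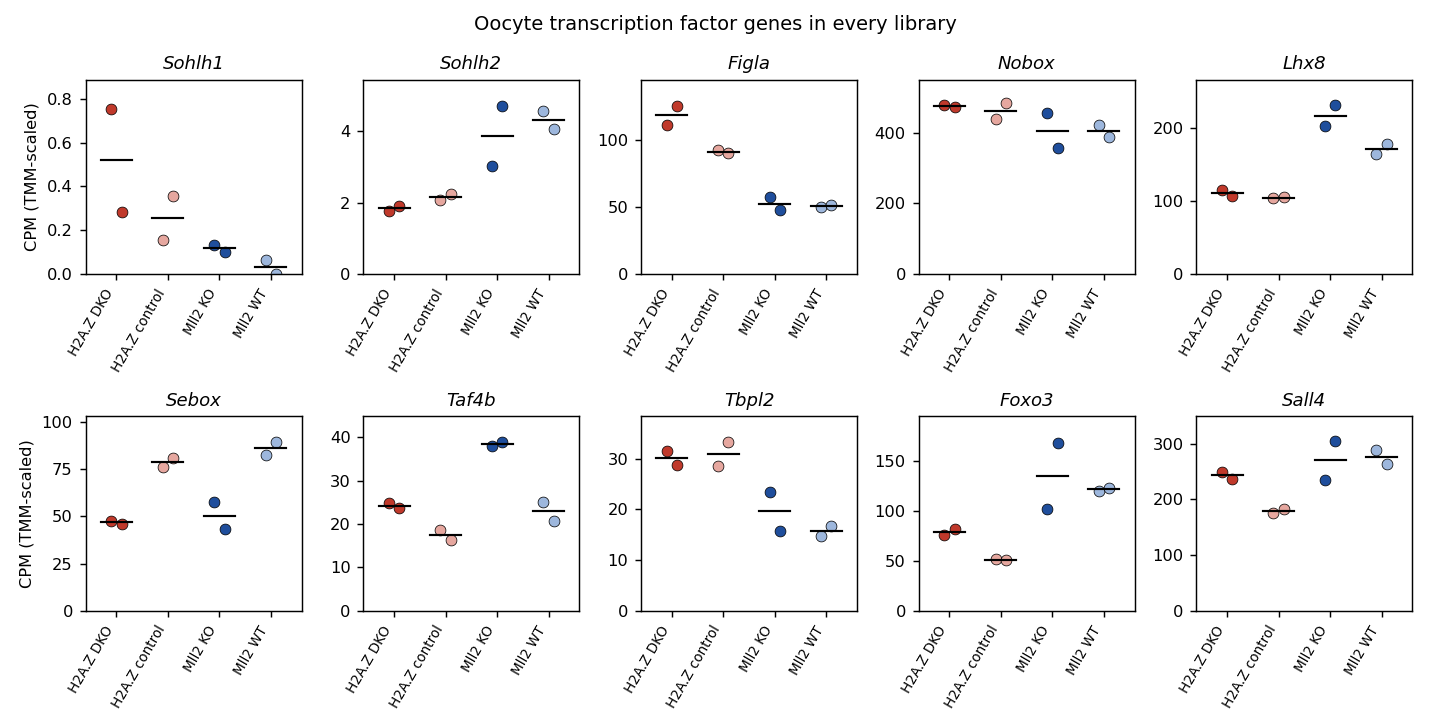
CPM of each of the 10 genes in every library, with each point a library, the 4 groups along the horizontal axis and the vertical axis starting at 0. Sebox lies at 46.0 and 47.6 CPM in the libraries labelled DKO and at 43.3 and 57.7 CPM in Mll2 KO, below all 4 control libraries.

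Sebox lies on GRCm38 chromosome 11 from 78503447 to 78505081 on the plus strand. It had 47.6 and 46.0 CPM in the libraries labelled DKO, against 76.4 and 81.1 CPM in H2A.Z control. Both libraries labelled DKO were below both controls. The log2 difference was -0.75 ± 0.13 (SE), 1.68-fold lower, with an adjusted p of 0.000636 by edgeR, and it was -0.88 relative to all genes. It kept its call in all 15 alternative analyses run.

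Foxo3 lies on chromosome 10 from 42181841 to 42276755 on the minus strand, Sall4 on chromosome 2 from 168748332 to 168767943 on the minus strand, Figla on chromosome 6 from 86016171 to 86020996 on the plus strand and Taf4b on chromosome 18 from 14783245 to 14900359 on the plus strand. Foxo3 had 75.5 and 81.5 CPM in the libraries labelled DKO, against 51.8 and 50.4 CPM in H2A.Z control. The groups did not overlap, and the log2 difference came to 0.62 ± 0.18 (1.54-fold, edgeR adjusted p = 0.0163), or 0.49 relative to all genes. RefSeq places Gm38485, with 34 to 99 counts per library, over part of Foxo3. Sall4 had 249 and 237 CPM in the libraries labelled DKO and 175 and 183 CPM in H2A.Z control, a log2 difference of 0.44 ± 0.12 (1.36-fold, edgeR adjusted p = 0.0111). Of the exonic bases of Sall4, 9.501% lie in the antisense gene Gm14261, which had 1 to 7 counts per library, and the library kit does not mark strand. Figla had 111 and 125 CPM in the libraries labelled DKO and 91.9 and 90.0 CPM in H2A.Z control, a log2 difference of 0.38 ± 0.12 (1.297-fold, edgeR adjusted p = 0.0228). Taf4b had 24.8 and 23.7 CPM in the libraries labelled DKO and 18.7 and 16.3 CPM in H2A.Z control, a log2 difference of 0.47 ± 0.15 (1.39-fold, edgeR adjusted p = 0.0245). None of these 4 overlapped between the groups, and neither did Lhx8 and Sohlh2, which did not pass the test. The share of all genes without overlap was not counted. Relative to all genes the differences of Sall4, Figla and Taf4b were 0.32, 0.25 and 0.35.

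These 4 higher calls were less stable than that of Sebox. With libraries scaled by their totals alone none of the 4 passed, their log2 differences being 0.25 to 0.50. None passed without H2A.Z control 1, without H2A.Z control 2, without DKO 2 or without Mll2 WT 2, and without DKO 1 only Figla did. The adjusted p then lay between 0.107 and 0.209 for Figla, 0.057 and 0.217 for Taf4b, 0.052 and 0.0989 for Foxo3, and 0.051 and 0.095 for Sall4, over the omissions that ended each call. The log2 differences remained at 0.56 to 0.68 for Foxo3, 0.41 to 0.48 for Sall4, 0.37 to 0.58 for Taf4b and 0.29 to 0.39 for Figla where a library of the H2A.Z line was left out and the call was lost. Such an omission leaves a group with 1 library, whose spread is assumed like that of the other groups, and 14.9% to 17.3% of all genes were then called. Without Mll2 WT 2 the differences were 0.50 for Foxo3, 0.32 for Sall4, 0.35 for Taf4b and 0.25 for Figla, and 23% of all genes were called.

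The remaining factors did not pass in this line. Nobox had 479.6 and 472 CPM in the libraries labelled DKO and 438 and 485 CPM in H2A.Z control, overlapping, with a log2 difference of 0.04 (95% interval -0.21 to 0.30). Lhx8 had 115 and 107 CPM in the libraries labelled DKO and 104 and 105 CPM in H2A.Z control, a log2 difference of 0.09 (interval -0.14 to 0.31). Tbpl2 had 31.6 and 28.8 CPM in the libraries labelled DKO and 28.4 and 33.3 CPM in H2A.Z control, a log2 difference of -0.03 (interval -0.41 to 0.34). These intervals are narrower than that of the low-count Sohlh2. Sohlh2 had 1.77 and 1.90 CPM (40 counts in each library) in the libraries labelled DKO and 2.07 and 2.23 CPM in H2A.Z control, a log2 difference of -0.23 (interval -0.88 to 0.42). Sohlh1 had 17 and 6 counts in the libraries labelled DKO and 3 and 9 counts in H2A.Z control, overlapping. The ratio of its summed counts, 23 against 12, was 1.95 after scaling, with a 95% interval of 0.93 to 4.31 that covers counting error only.

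The same question was put to MLL2. In Mll2 KO oocytes Sebox fell and Taf4b and Lhx8 rose, that is 2 higher and 1 lower of 9 tested, against 30.6% of all tested genes called, 14.4% higher and 16.2% lower. The median log2 difference was 0.05 over the 9 factors and 0.02 over all tested genes, or 0.14 over all genes with libraries scaled by their totals alone. Of all calls 47.1% were higher, and 62.9% under that scaling. Sebox had 57.7 and 43.3 CPM in Mll2 KO, against 82.6 and 89.6 CPM in Mll2 WT. Both knockout libraries were below both wild-type libraries, and the log2 difference came to -0.77 ± 0.13 (1.71-fold lower, edgeR adjusted p = 0.000429). Taf4b had 37.96 and 38.8 CPM in Mll2 KO, against 25.2 and 20.7 CPM in Mll2 WT, a log2 difference of 0.74 ± 0.14 (1.67-fold, edgeR adjusted p = 0.00122). Both kept their calls in all 15 alternatives. Lhx8, on chromosome 3 from 154306294 to 154330659 on the minus strand, had 203 and 232 CPM in Mll2 KO, against 164 and 178 CPM in Mll2 WT. The groups did not overlap, and the log2 difference came to 0.34 ± 0.10 (1.27-fold, edgeR adjusted p = 0.0202). The Lhx8 call was lost without Mll2 WT 1 (adjusted p = 0.181), Mll2 WT 2 (0.0755) or Mll2 KO 2 (0.0989, with a log2 difference of 0.20), and with the Mll2 line fitted alone (0.086).

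The other 6 tested factors did not pass in the Mll2 line, and in each of them the Mll2 KO libraries lay on either side of at least 1 wild-type library. Foxo3 had 101 and 168 CPM in Mll2 KO, the lowest and the highest of the line, against 120.0 and 123 CPM in Mll2 WT. Its log2 difference was 0.15 (95% interval -0.22 to 0.51), but 0.48 (edgeR adjusted p = 0.000261) without Mll2 KO 1 and -0.30 (0.0245) without Mll2 KO 2. With 1 knockout library left, the spread comes from the other groups and the distance between the knockout libraries no longer enters the test, so these p-values assume that the lone library varies as the others do. Sall4 had 235 and 305 CPM in Mll2 KO and 289 and 264 CPM in Mll2 WT, a log2 difference of -0.03 (interval -0.29 to 0.22) that was -0.28 (adjusted p = 0.0242) without Mll2 KO 2. Tbpl2 had 23.4 and 15.8 CPM in Mll2 KO and 14.8 and 16.7 CPM in Mll2 WT, a log2 difference of 0.32 (interval -0.06 to 0.69) that was 0.53 (adjusted p = 0.00954) without Mll2 KO 2, under the same assumption. These 3 values depend on which knockout library is used. Nobox had 455 and 356 CPM in Mll2 KO and 423 and 387 CPM in Mll2 WT, a log2 difference of 0.0014 (interval -0.25 to 0.25). Figla had 57.3 and 47.5 CPM in Mll2 KO and 50.1 and 51.1 CPM in Mll2 WT, a log2 difference of 0.05 (interval -0.20 to 0.30). Both overlapped between the groups. Sohlh2 had 3.03 and 4.70 CPM in Mll2 KO and 4.56 and 4.06 CPM in Mll2 WT, a log2 difference of -0.15 (interval -0.71 to 0.40). Sohlh1 had 4 and 3 counts in Mll2 KO and 2 and 0 counts in Mll2 WT, a ratio of summed counts of 3.57 (95% interval 0.68 to 35.2, counting error only). In 8 of the 9 tested factors the Mll2 KO pair was the widest of the 4 replicate pairs, at 1.14-fold for Lhx8 to 1.66-fold for Foxo3. Taf4b, at 1.02-fold, was the exception. Over all tested genes the Mll2 KO pair also correlated least, at 0.984 against 0.987 to 0.989 in the other groups. Its counts also differed most relative to counting error, with a chi-square per degree of freedom of 39.3 against 4.75 to 12.8. The fit of all libraries takes 1 spread per gene for all groups, so the wider spread of this pair is averaged with that of the others. The share of all genes in which this pair was the widest was not counted.

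**Figure D3:**
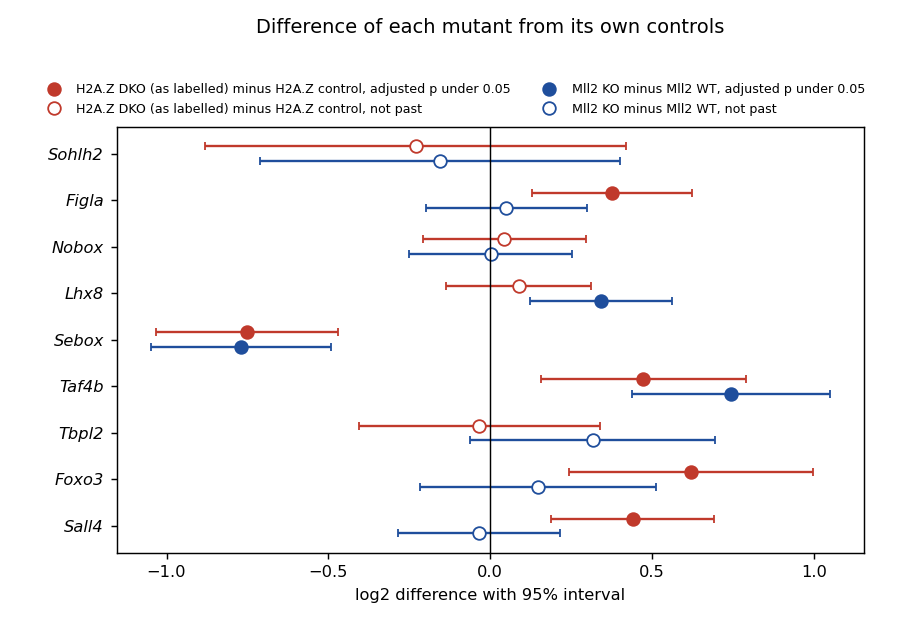
Log2 difference of each mutant from its own controls for the 9 tested factors, with 95% intervals; filled points passed an adjusted p of 0.05 and open points did not. Sebox lies at -0.75 and -0.77 in the H2A.Z and Mll2 lines, and the H2A.Z directions are as labelled.

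**Figure D4:**
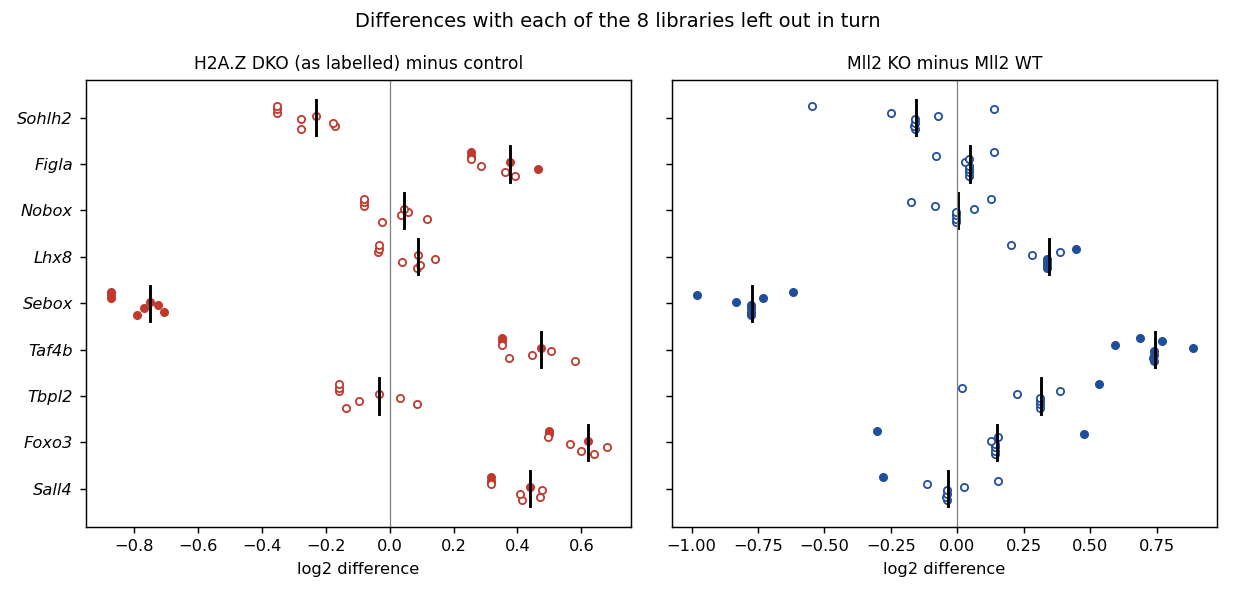
Log2 difference of each factor with each of the 8 libraries left out in turn, beside the value from all libraries, for each mutant comparison. Foxo3 in the Mll2 line runs between -0.30 and 0.48.

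The effects were then compared with each other, each mutant against its own controls. Of the 9 factors, 0 differed past the threshold between the libraries labelled DKO and Mll2 KO by edgeR, against 19.5% of all tested genes (12.9% higher, 6.68% lower), and 0 did with DESeq2. With no filter on low counts Foxo3 (edgeR adjusted p = 0.0286) and Sall4 (0.0149) passed, where 14.1% of all genes did, and with libraries scaled by their totals alone Lhx8 passed (0.0301), where 17.6% did. Of all calls of a difference 65.8% were higher, and 37.0% with libraries scaled by their totals alone. Sall4 came nearest, with a difference of log2 effects of 0.47 ± 0.17 (unadjusted p = 0.0122, adjusted p = 0.0582), and it was the 1 factor with an unadjusted p under 0.05. For Sebox the difference was 0.02 ± 0.19 (95% interval -0.37 to 0.41) and for Taf4b it was -0.27 ± 0.21 (interval -0.71 to 0.17), so effects of unequal size remain within these intervals. Without Mll2 KO 2, 3 factors passed, Foxo3 (0.80), Sall4 (0.60) and Tbpl2 (-0.69), where 25.2% of all genes did, and without Mll2 KO 1 Lhx8 did (-0.48), where 26.3% did. These calls rest on 1 knockout library, with the spread taken from the other groups.

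Between the control groups of the lines more factors passed than in either mutant comparison. In H2A.Z control against Mll2 WT, 7 of 9 factors passed, 2 higher and 5 lower, where 44.3% of all tested genes were called, 19% higher and 25.3% lower. Foxo3 had 51.8 and 50.4 CPM in H2A.Z control, against 120.0 and 123 CPM in Mll2 WT (log2 difference -1.25 ± 0.18, edgeR adjusted p = 6.52e-05). Figla had 91.9 and 90.0 CPM in H2A.Z control, against 50.1 and 51.1 CPM in Mll2 WT (0.84 ± 0.12, 3.21e-05). The log2 difference was 0.97 for Tbpl2, -0.999 for Sohlh2, -0.71 for Lhx8, -0.63 for Sall4 and -0.39 for Taf4b. The Sohlh2 call was lost under 4 alternatives, with adjusted p of 0.0505 to 0.0638, and the Taf4b call under 8, with adjusted p of 0.0596 to 0.34. Among these omissions were H2A.Z control 1, H2A.Z control 2 and Mll2 WT 1 for both genes and either library labelled DKO for Taf4b. Sebox (-0.13) and Nobox (0.19) did not pass. Line, strain, batch and any other difference between these controls cannot be told apart. H2afz and H2afv went against the labels of the H2A.Z line, so this comparison too holds for the libraries as labelled.

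Genes around the factors were counted from lists drawn up for this purpose, by the same edgeR calls. Counts from the test used above are to be read against the 30.9% (libraries labelled DKO) and 30.6% (Mll2 KO) of all tested genes called. In the same order that share was 26.9% and 32.2% with library totals alone. It was 43.1% and 21.5% with each line fitted alone, and 20.5% in both with no filter on low counts. The share also moved when a library was left out, so counts under an omission do not measure a list against all genes. Of 20 oocyte genes known to depend on the factors, 1 rose and 0 fell in the libraries labelled DKO, with a median log2 difference of -0.01 against 0.12 for all genes. The one was Dnmt1, the maintenance DNA methyltransferase (0.36, adjusted p = 0.0262), whose call was lost with library totals alone and when Mll2 WT 2 or any library of the H2A.Z line was left out (adjusted p of 0.0648 to 0.23 in those omissions). In Mll2 KO 0 of the same 20 rose and 8 fell, with a median of -0.29 against 0.02 for all genes. Those 8 were the zona pellucida gene Zp2, Fgf8, H1foo, Rspo2, Oosp1, Npm2, Jag1 and Kit. Jag1, a Notch ligand, had a log2 difference of -0.55 ± 0.11 (adjusted p = 0.00129), and Kit, the receptor of KIT ligand, one of -0.54 ± 0.12 (adjusted p = 0.00304). These 2 kept their calls in all 15 alternatives. Npm2 lost its call only with the line fitted alone (log2 difference -0.37) and without Mll2 WT 2 (-0.32). Zp2, Fgf8, H1foo, Rspo2 and Oosp1 lost theirs in several. The count that fell in Mll2 KO was 3 with library totals alone, 3 with the line fitted alone and 11 with no filter on low counts. It was 4 without any one library of the H2A.Z line, 6 without Mll2 WT 1, 2 without Mll2 WT 2, 11 without Mll2 KO 1 and 7 without Mll2 KO 2. In the libraries labelled DKO the count that fell was 6 with library totals alone, 8 with the line fitted alone, and 5 without Mll2 WT 2, Mll2 KO 1 or Mll2 KO 2.

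Of 12 bHLH and LIM partner genes, 2 rose and 1 fell in the libraries labelled DKO, and 6 rose and 2 fell in Mll2 KO. The median log2 differences were 0.35 and 0.56, against 0.12 and 0.02 for all genes. The count that rose was 3 in Mll2 KO without Mll2 KO 2, and 0 in the libraries labelled DKO without H2A.Z control 1, DKO 1 or Mll2 WT 2. The LIM-binding cofactor Ldb2 fell in the libraries labelled DKO (-2.05 ± 0.23, adjusted p = 1.04e-05), and Ssbp3, a partner of LDB proteins, rose (0.66 ± 0.17, adjusted p = 0.00922). The Ssbp3 call was lost without H2A.Z control 1 (0.0675), H2A.Z control 2 (0.0606), DKO 1 (0.0692) or Mll2 WT 2 (0.0529). In Mll2 KO the fallen genes were Tcf4, one of the E proteins with which tissue bHLH factors pair (-3.51 ± 0.45, adjusted p = 3.2e-05), and Ssbp2 (-0.70 ± 0.13, adjusted p = 0.00108). Of 20 tested genes of the TBP family, TFIID and TFIIA, 6 rose and 1 fell in the libraries labelled DKO, and 4 rose and 5 fell in Mll2 KO, with medians of 0.15 and -0.10 against the same 0.12 and 0.02. The 6 that rose became 4 with library totals alone. Fewer also rose when Mll2 WT 2 or any library of the H2A.Z line was left out. The count of this second list that fell in the libraries labelled DKO was 4 without Mll2 WT 2, 5 without Mll2 KO 1 or Mll2 KO 2 and 4 with library totals alone. In Mll2 KO 1 rose and 1 fell without Mll2 WT 2, 1 rose and 2 fell without Mll2 WT 1, and 6 rose and 7 fell without Mll2 KO 1. The TFIID subunit genes Taf10 (0.61 ± 0.10, adjusted p = 0.000373) and Taf13 (0.57 ± 0.11, adjusted p = 0.00104) rose in the libraries labelled DKO. In Mll2 KO Taf1, the largest TFIID subunit, fell (-1.28 ± 0.19, adjusted p = 0.000139) and Taf7 rose (0.43 ± 0.10, adjusted p = 0.00419), the Taf7 call being lost without Mll2 WT 1 (0.0681).

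Of 21 tested genes of the PI3K pathway and the FOXO family, 6 rose and 0 fell in the libraries labelled DKO, with a median log2 difference of 0.46 against 0.12 for all genes. The count that rose was 3 with library totals alone or without H2A.Z control 1, H2A.Z control 2, DKO 2 or Mll2 WT 2. In Mll2 KO 7 rose and 2 fell, with a median of 0.37 against 0.02. The 7 that rose became 2 without Mll2 WT 1, 0 without Mll2 WT 2, 10 without Mll2 KO 1 and 2 without Mll2 KO 2. Pik3cd (0.97 ± 0.14, adjusted p = 0.000144) and Pik3ca (0.66 ± 0.12, adjusted p = 0.000815), both catalytic subunits of PI3K, rose in the libraries labelled DKO. Pik3r1, a regulatory subunit, fell in Mll2 KO (-0.79 ± 0.11, adjusted p = 7.08e-05). Of 15 tested FOXO target genes, 2 rose and 1 fell in the libraries labelled DKO and 5 rose and 2 fell in Mll2 KO, with medians of 0.32 and 0.34 against 0.12 and 0.02. The 5 of Mll2 KO became 1 without Mll2 WT 1, 2 without Mll2 WT 2 and 2 without Mll2 KO 2. Cited2, a transcriptional cofactor, rose in both comparisons (0.57 ± 0.11 and 0.97 ± 0.11, adjusted p = 0.00141 and 9.69e-06). Klf6, a zinc finger factor, rose in the libraries labelled DKO (1.18 ± 0.28, adjusted p = 0.00473, but 0.0503 without H2A.Z control 2) and fell in Mll2 KO (-2.42 ± 0.34, adjusted p = 7.39e-05).

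Of 13 tested genes from a list of the other SALL genes and pluripotency factors, which leaves Sall4 out, 5 rose and 0 fell in the libraries labelled DKO, and 2 rose and 4 fell in Mll2 KO, with medians of 0.70 and -0.01 against 0.12 and 0.02. Without Mll2 WT 2, 0 rose and 2 fell in Mll2 KO. Klf4 rose in the libraries labelled DKO (1.93 ± 0.24, adjusted p = 3.58e-05) and in Mll2 KO (0.91 ± 0.20, adjusted p = 0.00264, but 0.0632 without Mll2 WT 2). Prdm1, a zinc finger repressor used in germ cell specification, rose in the libraries labelled DKO (1.15 ± 0.17, adjusted p = 0.000128), and the nuclear receptor gene Esrrb fell in Mll2 KO (-0.50 ± 0.11, adjusted p = 0.00236). Of 3 further genes used with several of the factors to turn mouse stem cells into oocyte-like cells, 1 rose and 0 fell in the libraries labelled DKO, and 1 rose and 1 fell in Mll2 KO, with medians of 0.15 and -0.09. The riser in both was Stat3 (0.72 ± 0.12 and 0.64 ± 0.12, adjusted p = 0.000338 and 0.000673). Dynll1, a dynein light chain, fell in Mll2 KO (-0.41 ± 0.11, adjusted p = 0.0115), a call lost without Mll2 WT 2 (0.112) and with the line fitted alone (0.0534).

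For the 6 factors called in either mutant comparison, the genes with the most similar pattern were looked up by Pearson's r of log2 CPM over the 8 libraries, among 7342 genes at a mean of 10 CPM or more. Each line gives 4 of the 8 libraries, and libraries of a group share a genotype, so these values are descriptions. Sebox was nearest to Obfc1 (0.99) and Leo1 (0.985), Taf4b to Chga (0.987) and Abhd17a (0.984), and Foxo3 to Hnrnpul2 (0.996) and Esrp1 (0.994). Sall4 was nearest to Nat14 (0.993) and Mgea5 (0.986), Figla to Tmem114 (0.997) and Cox7a2 (0.996), and Lhx8 to Tnip1 (0.998) and Zbtb48 (0.998).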

How the data were processed

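One table of unnormalised counts, which the authors deposited as whole numbers for each gene and all 8 libraries, was analysed. Per the labels' protocols, zonae were removed, about 20 oocytes were pooled per library, and 200 pg of SMART-Seq v4 cDNA entered the Nextera XT kit. The tools were RSEM 1.3.1, STAR 2.7.3 and Trim Galore 0.6.4 on build mm10, per the submitters' processing notes; whether RSEM estimates were rounded is not given in the sources used here. Groups followed the labels, and no library was left out.

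All 8 libraries entered one edgeR 4.0.16 fit (R 4.3.3) with 4 group means, filterByExpr by group (16847 genes), trimmed mean of M-values (TMM) scaling and the robust quasi-likelihood test. Effective totals (total times TMM factor) gave the CPM. SE came from the F statistic, and 95% intervals from the fit's degrees of freedom. Alternatives were DESeq2 1.42.0, 2 other scalings, 2 other filters, each line alone, a replicate block and each library left out. Sohlh1 failed the filter; Poisson or binomial counting intervals cover counting error only. Exon lengths came from GENCODE M21 on GRCm38 and promoters from RefSeq on GRCm38.p6. Replicate numbers were not treated as pairs: no litter or day is named, and same-numbered libraries' deviations correlated at 0.04 (H2A.Z line) and -0.02 (Mll2 line).

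The factors and gene lists were chosen with earlier results of these data known. Named were all 10 factors, the targeted genes as label checks, of up to 4 allowed per list and mutant comparison the 2 called genes with the smallest p, and for each called factor the 2 genes with the highest r. The SALL genes, and Zp2, Fgf8, H1foo, Rspo2, Oosp1 and Npm2, were named after their values were seen.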

Additional observations from a re-analysis of the deposited data

Results flagged for a closer look

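The response to the mutation differed between the lines, by edgeR's test of the difference of the 2 log2 effects, for 13 of the genes named around the factors and for the 3 targeted genes. Of all tested genes 19.5% differed in this way. The 13 had been named for a small p in a mutant comparison or after their values were seen. Their number is therefore no measure of the genes around the factors. Each difference is the effect in the libraries labelled DKO minus the effect in Mll2 KO, so its sign depends on the labels of the H2A.Z line, which H2afz and H2afv went against. For Klf6 the log2 effects were 1.18 in the libraries labelled DKO and -2.42 in Mll2 KO, a difference of 3.602 ± 0.44 (adjusted p = 4.52e-05). For Tcf4 they were -0.54 and -3.51 in the same order, a difference of 2.97 ± 0.63 (adjusted p = 0.00391). For Ldb2 they were -2.05 and 0.75, a difference of -2.80 ± 0.29 (adjusted p = 9e-06). For Prdm1 they were 1.15 and -0.73, a difference of 1.88 ± 0.23 (adjusted p = 5.28e-05). The difference was 1.02 for Klf4 (adjusted p = 0.0318), 0.84 for Pik3ca (0.00242), 0.82 for Pik3r1 (0.00193), 0.62 for Jag1 (0.0089), 0.62 for Kit (0.0159), 0.55 for Dynll1 (0.0225), 0.53 for Rspo2 (0.0182), 0.51 for Taf10 (0.0189) and 0.47 for Npm2 (0.0343). For the targeted genes it was 2.28 for H2afz (1.83e-06), 1.24 for H2afv (2.6e-05) and 2.72 for Kmt2b (4.78e-07). The median difference over all tested genes was 0.12, and -0.12 with libraries scaled by their totals alone. How the differences of these named and targeted genes move under that scaling or the other alternatives was not looked up. Of the 9 tested factors 0 differed in this way, though Foxo3 and Sall4 did with no filter on low counts and Lhx8 did with libraries scaled by their totals alone. No outlier test was made, since each group held 2 libraries.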

How the results depend on the processing

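Sebox in both mutant comparisons and Taf4b in Mll2 KO kept direction and call in all 15 alternatives. With library totals alone, 1 factor of 9 was called in the libraries labelled DKO against H2A.Z control and 0 were higher (26.9% of all genes called), and 1 factor differed between the mutants (1 lower; 17.6%); with no filter on low counts 2 differed (2 higher; 14.1%). With each line alone, 1 factor was higher in Mll2 KO, of 2 called (21.5%), and 5 were called in the libraries labelled DKO (43.1%). No pairing of replicates was shown, and under the replicate block 3 factors were lower in H2A.Z control than in Mll2 WT, of 5 called (29.7%), with no count of factors changed in either mutant comparison. Leaving out each library in turn gave 1 to 5 called factors in the libraries labelled DKO (0 to 4 higher), 2 to 5 in Mll2 KO (1 to 3 higher, 1 to 3 lower), 0 to 3 differing between the mutants (0 to 2 higher, 0 to 1 lower) and 5 to 7 between the controls (3 to 5 lower). All genes called then ran from 2642 to 6568 for the libraries labelled DKO, 2681 to 6819 for Mll2 KO, 1639 to 4639 for the difference and 5183 to 8659 for the controls. An omission leaves 1 library in a group, whose spread is assumed like that of the others.

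Signs turned only for differences that were not called with all libraries. In the libraries labelled DKO Nobox was -0.0020 with DESeq2, -0.081 with library totals and -0.082 with the line alone (-0.080 to 0.12 with a library left out), Lhx8 -0.035 with library totals and -0.037 with the line alone (-0.035 to 0.14), and Tbpl2 -0.16 to 0.085 with a library left out. In Mll2 KO Nobox was -0.012 with no filter and -0.0080 with the replicate block (-0.18 to 0.13), Sall4 0.089 with library totals (-0.28 to 0.15), Figla -0.080 to 0.14, Sohlh2 -0.55 to 0.14 and Foxo3 -0.30 to 0.48. For the difference of effects Nobox was -0.022 with DESeq2, -0.020 with factors from relative log expression and -0.20 with library totals (-0.21 to 0.12), Sebox -0.045, -0.042 and -0.23 in that order (-0.25 to 0.11), and Sohlh2 -0.49 to 0.19. The cause was not tested. With 2 libraries a group, small changes of the factors that did not pass are within their intervals, and Sohlh1 and Sohlh2 are limited by low counts.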
